A study of Mus musculus with 15 samples.

Results

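The mouse mitochondrial genome is a small circular DNA that encodes 37 genes, and all 37 were present among the 22798 gene symbols counted in this study of skeletal muscle, 0.162% of them. They were taken as the symbols that begin with mt-: 13 mRNAs for subunits of the respiratory chain, the 2 ribosomal RNAs mt-Rnr1 and mt-Rnr2, and 22 transfer RNAs. RNA was sequenced from skeletal muscle of C57BL/6 mice aged 12 months, fed a normal diet and fasted overnight. There were 3 libraries labelled CD47-KO (CD47-/- mice), 6 of exercised mice and 6 of sedentary wild-type mice. CD47 is a cell-surface receptor for thrombospondin-1, and the series set its loss beside exercise. The labels give neither the muscle, the exercise protocol, the knockout allele nor whether each library is 1 animal, so p-values measure the spread between libraries, which may be technical.

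Both strands of the mitochondrial genome are transcribed as long precursors that carry several genes each. Transfer RNAs lie between most of the mRNAs and rRNAs, and their excision releases the neighbouring RNAs. The mRNAs encode core subunits of complexes I, III, IV and V, and the rRNAs and transfer RNAs serve the mitochondrial ribosome that translates them. All proteins that copy, transcribe, process and translate this genome come from nuclear genes, as do most respiratory chain subunits. Muscle is rich in mitochondria, and mitochondrial mRNA makes up a large part of its polyadenylated RNA.

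Total counts were between 76005277 and 84364189 in the libraries labelled CD47-KO, between 54851831 and 77628546 in exercise libraries and between 50928458 and 70774311 in sedentary libraries. Cd47 itself, the targeted gene, stood at 11.5, 12.1 and 12.1 CPM (counts scaled to library size with TMM factors) in the libraries labelled CD47-KO, against 10.8 to 15.7 CPM in exercise libraries and 11.4 to 16.4 CPM in sedentary libraries. Its log2 fold change against sedentary libraries was -0.26 (SE 0.17; adjusted p = 0.295, edgeR's quasi-likelihood test), and -1.19 (adjusted p = 0.00171) once each gene's GC content was corrected for. Without that correction the counts of Cd47 thus lay within the range of both other groups. The labels do not give the allele, so a count over the whole gene cannot tell whether the label holds. The group is called by its label throughout, which bears on every direction given for it. Defining muscle markers were present in every library, with 10 muscle genes summing to 7.45% to 9.13% of counts in the libraries labelled CD47-KO, 12.6% to 14.5% in exercise libraries and 11.3% to 14.1% in sedentary libraries. Exercise and sedentary libraries with numbers 1 to 3 in their titles differed from those with numbers 4 to 6 in several values given here. No label says what separates these numbers, and the libraries labelled CD47-KO carry numbers 1 to 3 only. Sedentary library 6 stood apart for most mitochondrial genes.

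The mitochondrial genes took a larger part of the counts in the libraries labelled CD47-KO than in exercise libraries and than in 5 of the 6 sedentary libraries. Together they made up 18.1%, 19.2% and 18.6% of counts in the libraries labelled CD47-KO, 7.87%, 4.49%, 5.54%, 9.01%, 12.5% and 11.1% in exercise libraries 1 to 6, and 4.77%, 5.63%, 5.69%, 9.21%, 7.81% and 18.2% in sedentary libraries 1 to 6. The means were 18.6% ± 0.548 (SD, n = 3), 8.42% ± 3.11 (SD, n = 6) and 8.55% ± 4.99 (SD, n = 6), in that order of groups. Sedentary library 6 held a share within the range of the libraries labelled CD47-KO, and the other 5 sedentary libraries averaged 6.62%. In bulk tissue a larger share can come from more mitochondrial RNA in a cell, from fewer cells or less RNA of other kinds, or from the make-up of the library, and these cannot be told apart here.

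The share was carried by the mRNAs. The 13 mRNAs held 17.3%, 18.4% and 18.0% of counts in the libraries labelled CD47-KO, 3.62% to 11.8% in exercise libraries (median 8.08%) and 4.15% to 16.3% in sedentary libraries (median 6.02%). The 2 rRNAs held 0.755%, 0.706% and 0.598% in the libraries labelled CD47-KO, 0.182% to 0.851% in exercise libraries and 0.437% to 1.84% in sedentary libraries, so that all groups overlapped. The 22 transfer RNAs held 0.0556%, 0.0561% and 0.0554% in the libraries labelled CD47-KO, 0.0158% to 0.0330% in exercise libraries and 0.00886% to 0.0426% in sedentary libraries. The mRNA and transfer RNA shares of the libraries labelled CD47-KO therefore lay above those of all 12 other libraries. The mRNA share also followed the title numbers, at 3.62% to 7.66% for numbers 1 to 3 and 8.50% to 11.8% for numbers 4 to 6 in exercise libraries, and 4.15% to 5.23% and 6.81% to 16.3% in sedentary libraries.

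**Figure D1:**
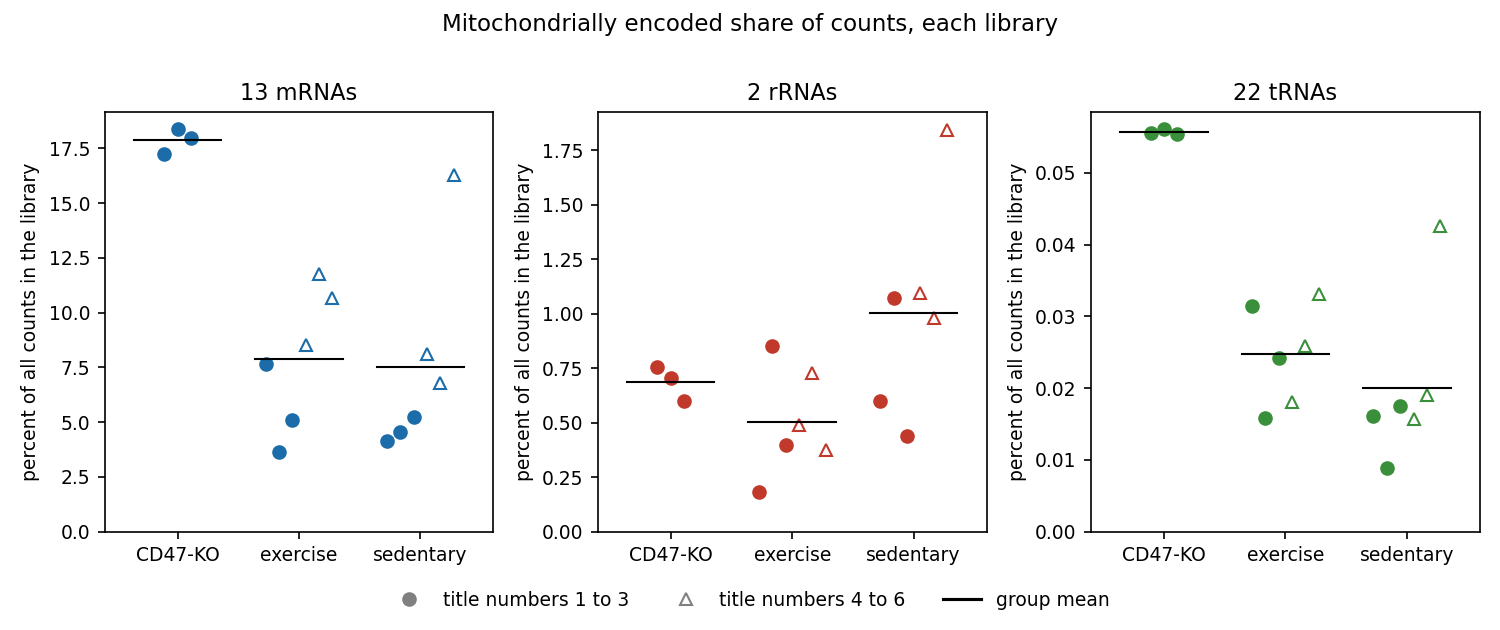
Percent of all counts in each library (y axis) for the 13 mRNAs, 2 rRNAs and 22 tRNAs of the mitochondrial genome in the libraries labelled CD47-KO, exercise and sedentary libraries; filled circles are title numbers 1 to 3, open triangles numbers 4 to 6, and lines group means. The 3 libraries labelled CD47-KO lie above the others for mRNAs and tRNAs and among them for rRNAs, and sedentary library 6 is the highest of its group in all 3 panels.

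Measured against nuclear genes of the same complexes the difference was wider. The mRNAs had 12.4, 10.9 and 14.3 counts for each count of 71 nuclear-encoded subunits of complexes I, III, IV and V in the libraries labelled CD47-KO. This ratio was between 2.52 and 4.51 in exercise libraries and between 1.92 and 6.01 in sedentary libraries, with the highest value again in sedentary library 6. Of these 71 nuclear subunits, 1 (Uqcrb, of complex III) was called higher and 30 lower in the libraries labelled CD47-KO than in sedentary libraries (edgeR's quasi-likelihood test, adjusted p at or under 0.05), with a median log2 fold change of -0.92, against -0.11 over all genes tested. With correction for GC content 0 were called higher and 16 lower, and 8 of the 31 calls were kept. Of all genes tested, 11.9% were called higher and 8.75% lower without the correction, and 4.29% and 4.64% with it.

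Each of the 37 genes passed the filter on low counts and was tested among 17975 genes. Against sedentary libraries, 14 were higher and 1 lower in the libraries labelled CD47-KO, and 22 were not called (edgeR's quasi-likelihood test, Benjamini-Hochberg adjustment over all genes, threshold 0.05). Over all genes 20.7% were called, 11.9% higher and 8.75% lower. The mRNAs gave 6 of the higher calls, and 12 of 13 had a log2 fold change above 0, with a median of 1.51. The transfer RNAs gave 8 higher calls and 1 lower, with a median of 1.11, and neither rRNA was called. Nuclear genes as low in GC as the mitochondrial genes had folds of much the same size, a measurement given in full after the single genes.

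The highest fold among the mRNAs was that of mt-Nd4l, which encodes a small membrane subunit of complex I and lies at positions 9877 to 10173 of the plus strand of chromosome M (GRCm38). It stood at 2369, 2143 and 2550 CPM in the libraries labelled CD47-KO, against 325 to 720 CPM in exercise libraries (median 439) and 212 to 925 CPM in sedentary libraries (median 412). The groups did not overlap, and its log2 fold change against sedentary libraries was 2.37 (SE 0.36; adjusted p = 0.000306). Against sedentary libraries, 14 of the 37 mitochondrial genes were higher without overlap and 1 lower, where 15.7% and 10.3% of all genes were.

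mt-Nd5, another membrane subunit of complex I, had 11075, 9892 and 13018 CPM in the libraries labelled CD47-KO, against 1724 to 3893 CPM in exercise libraries and 1275 to 5487 CPM in sedentary libraries. Its log2 fold change was 2.14 (SE 0.39; adjusted p = 0.00112). mt-Nd6 lies opposite the end of mt-Nd5, shares 14 bases with it, and is the only mRNA transcribed from the minus strand. It had 3139, 3138 and 3518 CPM in the libraries labelled CD47-KO, against 668 to 1749 CPM in exercise libraries and 600 to 2492 CPM in sedentary libraries (log2 fold change 1.57, SE 0.40; adjusted p = 0.0107). mt-Nd2 had 12874, 12089 and 14153 CPM in the libraries labelled CD47-KO, 3013 to 7088 CPM in exercise libraries and 2369 to 10399 CPM in sedentary libraries (log2 fold change 1.51, SE 0.39; adjusted p = 0.0119). mt-Nd4 had 13786, 12971 and 15069 CPM in the libraries labelled CD47-KO, 1526 to 6659 CPM in exercise libraries and 1220 to 10982 CPM in sedentary libraries (log2 fold change 1.77, SE 0.58; adjusted p = 0.0388). All 4 encode complex I subunits, and in each the libraries labelled CD47-KO lay above all others. The call for mt-Nd4 held in 2 of the 9 fits that left out 1 library of these groups.

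mt-Atp8, a small subunit of the ATP synthase (complex V), was the last mRNA called higher. Its reading frame runs into that of mt-Atp6, and the bases that both genes share are in capitals in the sequence of the RNA strand (GRCm38, chromosome M, positions 7766 to 7969, plus strand, GENCODE vM21 transcript), which is shown because unique assignment of a read to either gene depends on them.
mt-Atp8: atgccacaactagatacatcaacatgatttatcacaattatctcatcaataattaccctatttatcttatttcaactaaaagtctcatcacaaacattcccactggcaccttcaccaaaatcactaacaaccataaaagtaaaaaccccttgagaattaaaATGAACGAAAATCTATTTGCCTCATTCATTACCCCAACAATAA
It had 3216, 3194 and 3650 CPM in the libraries labelled CD47-KO, against 462 to 1194 CPM in exercise libraries and 393 to 1677 CPM in sedentary libraries. The groups did not overlap, and the log2 fold change was 2.06 (SE 0.36; adjusted p = 0.000853). The partner mt-Atp6 had 1516, 1808 and 10772 CPM in the libraries labelled CD47-KO, against 185 to 1646 CPM in exercise libraries and 153 to 3408 CPM in sedentary libraries. Its fold rested on 1 library: the log2 fold change was 2.19 (SE 0.91; adjusted p = 0.101) and 0.73 without CD47-KO library 3.

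The other 6 mRNAs were not called. mt-Co1, the catalytic subunit of complex IV and the highest mitochondrial mRNA, had 57835, 56816 and 53136 CPM in the libraries labelled CD47-KO, 18101 to 49420 CPM in exercise libraries and 16148 to 79863 CPM in sedentary libraries (log2 fold change 0.73, SE 0.42; adjusted p = 0.244). The groups overlapped through sedentary library 6 alone, since the next highest sedentary library had 33497 CPM. mt-Co2 had a log2 fold change of 0.99 (adjusted p = 0.0909), mt-Nd1 of 1.17 (adjusted p = 0.138) and mt-Cytb, the sole mitochondrial subunit of complex III, of 1.32 (adjusted p = 0.0773). mt-Co3 and mt-Nd3 lay near 0, at 0.06 and -0.01. Without sedentary library 6, 26 of the 37 genes were called higher, 11 of them mRNAs and 15 transfer RNAs, and 0 lower, where 14.1% of all genes were called higher and 7.62% lower.

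**Figure D2:**
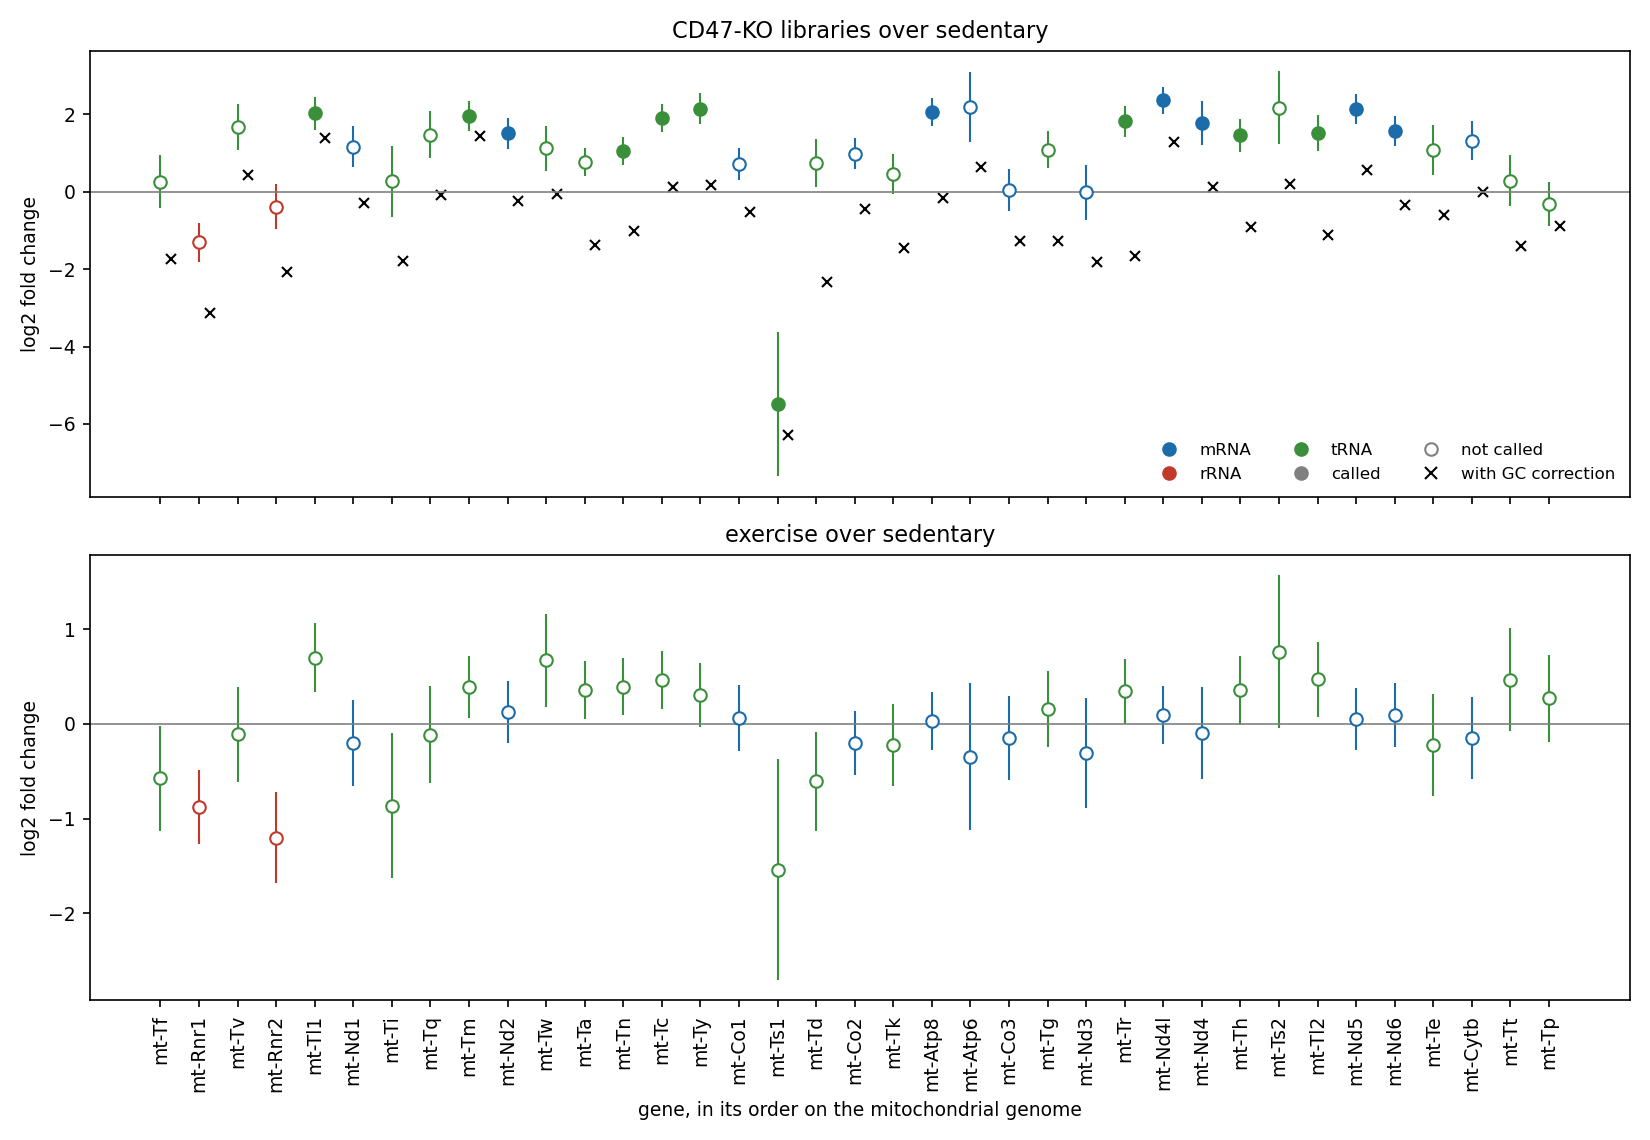
Log2 fold change (y axis) of each of the 37 genes in genome order (x axis), for the libraries labelled CD47-KO over sedentary (top) and exercise over sedentary (bottom); bars are SE, filled points were called, and crosses in the top panel are values with GC correction. Most points in the top panel lie above 0 while most of the crosses lie below 0, and no point in the bottom panel is filled.

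The rRNAs, scaffolds of the small and the large mitochondrial ribosomal subunit, did not follow the mRNAs. mt-Rnr1 had 2532, 1965 and 1557 CPM in the libraries labelled CD47-KO, 1035 to 5756 CPM in exercise libraries (median 2436) and 2633 to 9134 CPM in sedentary libraries (median 4004). All sedentary libraries were above the libraries labelled CD47-KO, but the test did not call the difference (log2 fold change -1.30, SE 0.51; adjusted p = 0.0796). mt-Rnr2 had 4790, 4192 and 4301 CPM in the libraries labelled CD47-KO, 726 to 4190 CPM in exercise libraries and 1760 to 14034 CPM in sedentary libraries (log2 fold change -0.38, SE 0.59; adjusted p = 0.706). As a part of all mitochondrial counts, the 2 rRNAs made up 3.21% to 4.18% in the libraries labelled CD47-KO, 2.31% to 18.9% in exercise libraries and 7.68% to 19.1% in sedentary libraries. The library preparation named in the labels can be run with or without poly(A) selection, and which was used is not given in the sources used here.

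Among the transfer RNAs, mt-Ty (tyrosine) had 54.5, 55.0 and 49.5 CPM in the libraries labelled CD47-KO, against 9.33 to 20.9 CPM in exercise libraries and 5.15 to 28.6 CPM in sedentary libraries (log2 fold change 2.15, SE 0.40; adjusted p = 0.00130). mt-Tc (cysteine), its neighbour on the minus strand, had 69.3, 70.5 and 70.9 CPM in the libraries labelled CD47-KO, 15.2 to 34.0 CPM in exercise libraries and 10.03 to 41.4 CPM in sedentary libraries (log2 fold change 1.90, SE 0.36; adjusted p = 0.00154). In both genes the libraries labelled CD47-KO were close to each other and above all others. mt-Tl1, a leucine transfer RNA that follows mt-Rnr2 directly, had 62.1, 63.8 and 98.4 CPM in the libraries labelled CD47-KO, 14.5 to 48.0 CPM in exercise libraries and 9.46 to 34.1 CPM in sedentary libraries (log2 fold change 2.03, SE 0.43; adjusted p = 0.00324). mt-Tm (methionine) had a log2 fold change of 1.97 (SE 0.39; adjusted p = 0.00205) and mt-Tr (arginine) of 1.82 (SE 0.40; adjusted p = 0.00443).

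The next 3 calls were mt-Tl2, mt-Th and mt-Tn, with log2 fold changes of 1.52, 1.46 and 1.06, and for mt-Tn these libraries overlapped with sedentary ones. By coding strand, 5 of 14 plus-strand transfer RNAs and 3 of 8 minus-strand ones were called higher, with medians of 1.29 and 1.07. In all, 10 genes were called in all 9 fits that left out 1 library: mt-Atp8, mt-Nd2, mt-Nd4l, mt-Nd5, mt-Nd6, mt-Tc, mt-Tl1, mt-Tm, mt-Tr and mt-Ty. mt-Th and mt-Tl2 were called in 6 of the 9, mt-Ts1 in 3 and mt-Tn in 1. Without any 1 of the 3 libraries labelled CD47-KO, 10 genes were called. Calls over all genes fell as well, from 3719 of 17975. They were 2361 of 18540 without library 1, 2245 of 18445 without library 2 and 2178 of 18525 without library 3. Transfer RNAs are short, folded and modified, and a library of fragmented RNA counts them mainly through precursors or fragments.

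GC content moved with these results. The transcripts of the mitochondrial mRNAs were 31.86% to 41.08% GC, the rRNAs 35.4% and 35.81% and the transfer RNAs 17.14% to 44.93%, against a median of 49.7% over 17907 nuclear genes tested. Nuclear genes of like GC content had like folds: the median difference between the libraries labelled CD47-KO and sedentary libraries, as log2 fold change, was 1.54 for 257 nuclear genes of 35% to 37.5% GC, 1.33 for 725 genes of 37.5% to 40%, and -0.30 for 2421 genes of 50% to 52.5%. In exercise libraries over sedentary libraries the same bins had medians of -0.20, -0.11 and 0.00. With the trend on GC removed within each library, 2 of the 37 genes were called higher and 5 lower, where 4.29% of all genes were called higher and 4.64% lower. The median of the mRNAs was -0.24, and 21 of 37 genes changed sign.

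With that correction mt-Nd4l (1.30; adjusted p = 0.0145) and mt-Tm (1.44; adjusted p = 0.0371) stayed higher, and mt-Ts1 (-6.30; adjusted p = 0.0302) stayed lower, as log2 fold changes. mt-Rnr1 (-3.12; adjusted p = 0.00517), mt-Rnr2 (-2.08; adjusted p = 0.0199), mt-Td (-2.34; adjusted p = 0.00537) and mt-Nd3 (-1.81; adjusted p = 0.0400) became lower calls. mt-Td (17.14% GC), mt-Tr (22.06%) and mt-Ti (27.54%) lie below the lowest GC of any nuclear gene tested, 28.1%, so their corrected values have no nuclear genes of like GC behind them. Nuclear genes were also too few to give a bin under 32.5% GC. The corrected values of mt-Atp8 (31.86%), mt-Th (31.34%), mt-Tl2 (30.99%), mt-Tf and mt-Tg (30.88% each) and mt-Ts2 (32.2%) thus rest on few nuclear genes. The other 12 calls were lost, and 7 of these had the opposite sign. Most mitochondrial genes called higher without the correction were thus not called higher once the trend on GC was removed. That trend is smoothed over GC and can differ from the nuclear genes of a given GC content. For 47 nuclear genes of 32.5% to 35% GC the median log2 fold change was 1.48, with quartiles of 1.05 and 2.34. mt-Nd6 (34.1% GC) lay above that median without the correction and at -0.35 with it. Whether GC content had a part in the folds of the mitochondrial genes was not tested.

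**Figure D3:**
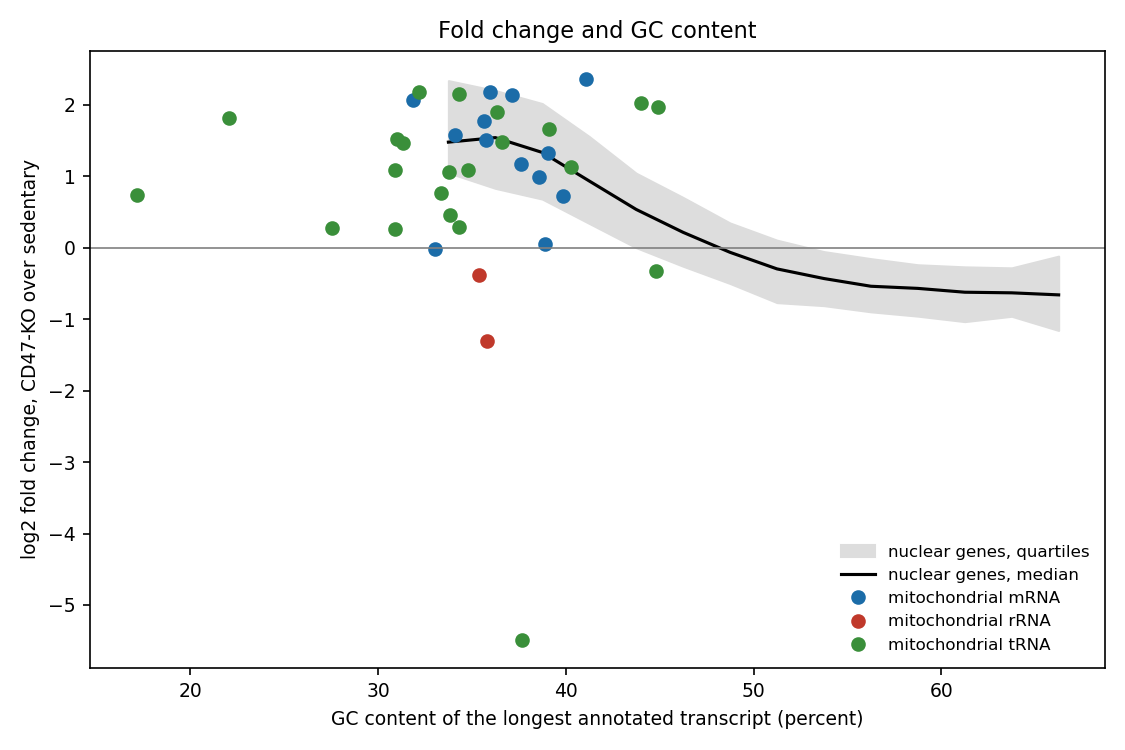
Log2 fold change, libraries labelled CD47-KO over sedentary libraries (y axis), against GC content of the transcript (x axis, percent); the line is the median and the band the quartiles of nuclear genes in bins of GC, and points are the 37 mitochondrial genes. Most mRNAs lie inside the band. Genes under its level include mt-Rnr1, mt-Rnr2, mt-Co3, mt-Nd3, mt-Ts1, mt-Tk, mt-Tt and mt-Tp, and genes above it include mt-Nd4l, mt-Tl1 and mt-Tm.

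Other values also separated the libraries labelled CD47-KO from the rest. A pair of abundant clone symbols, AY036118 and CT010467, held 0.0327% to 0.0596% of counts in the libraries labelled CD47-KO, 0.880% to 12.3% in exercise libraries and 2.83% to 10.1% in sedentary libraries. Of 6 nuclear RNAs without a long poly(A) tail, 5 were lower in the libraries labelled CD47-KO than in sedentary libraries, with and without GC correction. Their sum was 0.000455% to 0.000628% of counts in the libraries labelled CD47-KO, 0.00610% to 0.0805% in exercise libraries and 0.0165% to 0.0562% in sedentary libraries. Of the 10 muscle markers, 4 were lower and 0 higher than in sedentary libraries, and with GC correction 2 were lower. Over all genes 11.9% were called higher and 8.75% lower, and 4.29% and 4.64% with GC correction. The marker lists are too short to read single calls against these shares. Of 12 slow fibre markers 0 were called (median log2 fold change -0.96), and of 6 Schwann cell markers 1 was lower (median -1.31). Red blood cell markers had 0 of 5 called (median -1.12) and liver markers 1 of 5 lower (median -4.13). Of 5 endothelial, 5 macrophage and 5 adipocyte markers, 1 macrophage marker was higher, and the medians were -0.60, 0.03 and -0.06 in that order. A difference in preparation between the libraries labelled CD47-KO and all others cannot be told apart from the genotype, and the part of these values in the mitochondrial results was not tested.

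To compare the genes within the mitochondrial pool, the counts were also scaled to the sum of the 13 mitochondrial mRNAs. On this scale 44.0% of all genes were called between the libraries labelled CD47-KO and sedentary libraries, 0.974% higher and 43.0% lower, since nuclear genes were lower relative to mitochondrial mRNA (median log2 fold change -1.58). Among the mitochondrial genes 3 were higher and 5 lower. The higher ones were mt-Nd4l (log2 fold change 1.20, SE 0.32; adjusted p = 0.00943), mt-Nd5 (0.99, SE 0.32; adjusted p = 0.0201) and mt-Atp8 (0.87, SE 0.33; adjusted p = 0.0410). The lower ones were mt-Rnr1 (-2.59, SE 0.73; adjusted p = 0.0116), mt-Rnr2 (-1.40, SE 0.56; adjusted p = 0.0472), mt-Co3 (-0.89, SE 0.34; adjusted p = 0.0388), mt-Ts1 (-5.48; adjusted p = 0.00784) and mt-Tp (-1.44; adjusted p = 0.0329). None of these 8 overlapped between the groups, but they were picked by calls on the same values. Of all 37 mitochondrial genes, 8 lay above and 6 below all sedentary libraries, where 1.96% and 22.7% of all genes did.

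The calls on this scale depended on single libraries. Without CD47-KO library 3, 0 mitochondrial genes were called, without library 2 there were 2 and without library 1 there were 4. With TMM scaling, calls over all genes also fell when 1 of these libraries was left out, so such losses are not particular to mitochondrial genes. With GC correction 8 genes were called on this scale, 3 higher and 5 lower, where 3.99% of all genes were called higher and 5.05% lower. Among them were mt-Nd4l (1.31), mt-Rnr1 (-3.16), mt-Rnr2 (-2.10) and mt-Ts1 (-6.22) of the 8 above, while mt-Nd5 (0.55), mt-Atp8 (-0.25), mt-Co3 (-1.25) and mt-Tp (-0.85) were not called.

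Shares of the mitochondrial mRNA counts show how the pool was divided, for called and other genes. mt-Co1, not called on this scale, made up 34.6%, 35.4% and 30.1% of mitochondrial mRNA counts in the libraries labelled CD47-KO, 42.3% to 49.7% in exercise libraries and 39.0% to 48.0% in sedentary libraries. mt-Co3 made up 6.97%, 6.99% and 6.12% in the libraries labelled CD47-KO, 10.5% to 13.4% in exercise libraries and 9.63% to 14.5% in sedentary libraries. Both had a smaller share in the libraries labelled CD47-KO than in any other library. The remaining mitochondrial subunit of complex IV, mt-Co2, did not separate, at 6.48%, 6.92% and 5.93% in the libraries labelled CD47-KO, 5.18% to 7.69% in exercise libraries and 5.21% to 9.80% in sedentary libraries. mt-Nd5 made up 6.62%, 6.17% and 7.38% in the libraries labelled CD47-KO, 2.97% to 4.32% in exercise libraries and 2.68% to 3.97% in sedentary libraries. mt-Nd4l made up 1.42%, 1.34% and 1.45% in the libraries labelled CD47-KO, 0.521% to 0.811% in exercise libraries and 0.451% to 0.686% in sedentary libraries. The minus-strand mt-Nd6, not called on this scale, made up 1.88%, 1.96% and 1.99% in the libraries labelled CD47-KO, above 1.22% to 1.83% in exercise libraries and 1.22% to 1.78% in sedentary libraries.

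Per kilobase of gene, mt-Co1 was the highest mRNA in every group, with a median of 36774 CPM per kilobase in the libraries labelled CD47-KO, 24242 in exercise libraries and 16434 in sedentary libraries. The places after it depended on reads given to near-identical nuclear copies, described further on. As counted, mt-Nd1 was second in the libraries labelled CD47-KO, at 19391 CPM per kilobase, and mt-Co3 in the exercise and sedentary groups, at 12382 and 9664. With the copies added, mt-Co2 was second in the libraries labelled CD47-KO, at 29914 CPM per kilobase, and mt-Nd1 had rank 4, while mt-Co3 stayed second in the exercise and sedentary groups, at 24707 and 18523. As counted, the lowest mRNA was mt-Nd3 in the libraries labelled CD47-KO and mt-Atp6 in the exercise and sedentary groups. With the copies added, mt-Nd3 stayed lowest in the libraries labelled CD47-KO, and mt-Nd5 was lowest in the exercise and sedentary groups, at 1340 and 1199 CPM per kilobase, where mt-Atp6 had 6423 and 4737. Most neighbours in this order lie within each other's range over libraries. Across the 15 libraries the 13 mRNAs moved closely together, with a lowest pairwise Spearman correlation of 0.72. These points share libraries, depth and group, so the correlations are descriptions. With the chromosome 1 copies left out, the 5 nuclear genes most like the summed mitochondrial mRNA over these 15 libraries were Mrpl47 (0.95), Pdgfd, Txndc9, Zfp958 and Uqcrb, by Spearman correlation of log2 CPM. The copies had 0.74 to 0.99, the highest Gm10925.

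Exercise and sedentary libraries were not separated by any mitochondrial gene. Of 17975 genes, 0 were called (0.00%; edgeR's quasi-likelihood test), 665 had an unadjusted p under 0.05, and DESeq2 called 9. The log2 fold changes of the mRNAs lay between -0.34 and 0.13, with a median of -0.09, and those of the transfer RNAs had a median of 0.32. The 2 rRNAs were the only mitochondrial genes with an unadjusted p under 0.05: mt-Rnr1 had a log2 fold change of -0.88 (SE 0.39; unadjusted p = 0.0389) and mt-Rnr2 of -1.20 (SE 0.48; unadjusted p = 0.0232), both with an adjusted p of 1.00. mt-Rnr2 stood at 726, 3652, 1533, 2800, 4190 and 2178 CPM in exercise libraries 1 to 6, against 1898, 4344, 1760, 6494, 6120 and 14034 CPM in sedentary libraries 1 to 6. The groups overlapped. Each exercise library was below the sedentary library of its title number, but exercise libraries 4 to 6 carry the numbers 6 to 8 in their descriptions, so the numbers need not match samples. No mitochondrial gene was without overlap between these groups, against 0.100% of all genes higher and 0.0612% lower without overlap, and none relative to mitochondrial mRNA, against 0.0111% and 0.0501%. Among numbers 1 to 3 alone the log2 fold changes were -0.43 for mt-Rnr1 and -0.46 for mt-Rnr2, and among numbers 4 to 6 alone -1.38 and -1.56.

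Against exercise libraries, 13 mitochondrial genes were higher in the libraries labelled CD47-KO (7 mRNAs and 6 transfer RNAs) and 0 lower, where 20.6% of all genes were called, 12.2% higher and 8.34% lower. This comparison shares its 3 libraries labelled CD47-KO with the one against sedentary libraries. The libraries labelled CD47-KO lay above all exercise libraries for 21 of the 37 genes and below them for 0, against 17.5% and 14.1% of all genes. Without CD47-KO library 2, or without library 3, 8 genes were called. Over all genes 2292 of 18445 and 2329 of 18525 were called in these fits, against 3698 of 17975 with all libraries. The median log2 fold change was 1.47 for mRNAs and 1.12 for transfer RNAs. With GC correction 1 gene was called higher and 6 lower, where 4.49% of all genes were higher and 4.57% lower, 1 call was kept and 26 of 37 genes changed sign. Relative to mitochondrial mRNA, 3 were higher and 3 lower (31.4% of all genes called, 1.65% higher and 29.8% lower), 8 lay above and 6 below all exercise libraries (3.39% and 43.6% of all genes), and 0 were called without CD47-KO library 2 or without library 3.

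Several values followed the numbers in the titles. In exercise and sedentary libraries, all those with numbers 4 to 6 lay above all those with numbers 1 to 3 for 8 of 13 mRNAs (mt-Nd1, mt-Atp6, mt-Co3, mt-Nd3, mt-Nd4l, mt-Nd4, mt-Nd5 and mt-Cytb), 0 of 2 rRNAs and 3 of 22 transfer RNAs (mt-Ti, mt-Ts1 and mt-Te). mt-Te (glutamate) had 20.9 to 34.4 CPM in exercise libraries with numbers 1 to 3 and 58.2 to 89.8 CPM with numbers 4 to 6, and 17.3 to 22.8 CPM and 51.4 to 189 CPM in sedentary libraries.

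The sequences of mt-Ti and mt-Ts1 are shown with those of mt-Ts2 and mt-Tp, which varied widely within groups but overlapped between the numbers, and of mt-Tl1, which was called higher. They are given as DNA letters of the RNA strand, 5′ to 3′, from GENCODE vM21 transcripts on GRCm38. Bases that a neighbouring gene shares are in capitals, because a read over them may match both genes. For mt-Ts1, and for the last 3 bases of mt-Ti, the neighbour lies on the opposite strand. A count that keeps strand could tell such reads apart, and the handling of strand is not given.
mt-Ti: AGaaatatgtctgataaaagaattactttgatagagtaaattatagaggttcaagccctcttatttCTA
mt-Ts1: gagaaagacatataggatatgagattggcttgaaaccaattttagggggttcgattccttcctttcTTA
mt-Ts2: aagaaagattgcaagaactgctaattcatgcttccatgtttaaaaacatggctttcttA
mt-Tp: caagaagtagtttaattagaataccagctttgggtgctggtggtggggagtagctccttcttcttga
mt-Tl1: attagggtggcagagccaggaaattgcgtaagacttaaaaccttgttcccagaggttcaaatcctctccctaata
mt-Ts1, a serine transfer RNA on the minus strand at positions 6870 to 6938, shares its last 3 bases with the end of mt-Co1 on the opposite strand. It had 4, 4 and 3 counts in the libraries labelled CD47-KO, 10, 6, 2, 152, 209 and 120 in exercise libraries 1 to 6, and 4, 2, 4, 218, 123 and 651 in sedentary libraries 1 to 6. All libraries with numbers 1 to 3 had 10 counts or fewer and all with numbers 4 to 6 had 120 or more. The lower call in the libraries labelled CD47-KO (log2 fold change -5.49, SE 1.87; adjusted p = 0.0472) is thus set by the sedentary libraries with numbers 4 to 6.

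mt-Ti (isoleucine, positions 3706 to 3774, plus strand) had 379, 372 and 279 counts in the libraries labelled CD47-KO, 70, 34, 24, 168, 372 and 138 in exercise libraries 1 to 6, and 65, 22, 33, 179, 101 and 662 in sedentary libraries 1 to 6. Within the exercise and sedentary groups numbers 4 to 6 lay above numbers 1 to 3 again, and it was not called. mt-Ts2, the other serine transfer RNA (positions 11613 to 11671, plus strand), had 525, 456 and 601 counts in the libraries labelled CD47-KO, 389, 170, 11, 112, 129 and 87 in exercise libraries 1 to 6, and 2, 2, 144, 101, 91 and 136 in sedentary libraries 1 to 6. It was not called (log2 fold change 2.18; adjusted p = 0.116), although in CPM the libraries labelled CD47-KO lay above all sedentary libraries. Exercise library 1 lay within their range. mt-Tp (proline, positions 15356 to 15422, minus strand) differed among the libraries labelled CD47-KO themselves, with 1956, 304 and 391 counts, against 503 to 1771 in exercise libraries and 473 to 1540 in sedentary libraries. mt-Tl1 (positions 2676 to 2750, plus strand) had 4870, 5568 and 8467 counts in the libraries labelled CD47-KO.

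The ratio of mt-Rnr2 to mt-Rnr1, which lie on 1 strand with only mt-Tv between them and share a precursor, also differed by number. It was 1.89, 2.13 and 2.76 in the libraries labelled CD47-KO. In exercise libraries it was 0.561 to 0.701 for numbers 1 to 3 and 1.31 to 1.44 for numbers 4 to 6. In sedentary libraries it was 0.614 to 0.669 for numbers 1 to 3 and 1.502 to 1.66 for numbers 4 to 6. No library with numbers 1 to 3 of these groups overlapped one with numbers 4 to 6, and the libraries labelled CD47-KO lay above both. Against the sedentary libraries of numbers 1 to 3 alone, 30 of the 36 genes that passed the filter were called higher in the libraries labelled CD47-KO and 0 lower, where 19.2% of all genes were called higher and 13.8% lower. The median log2 fold change of the mRNAs was 2.47.

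**Figure D4:**
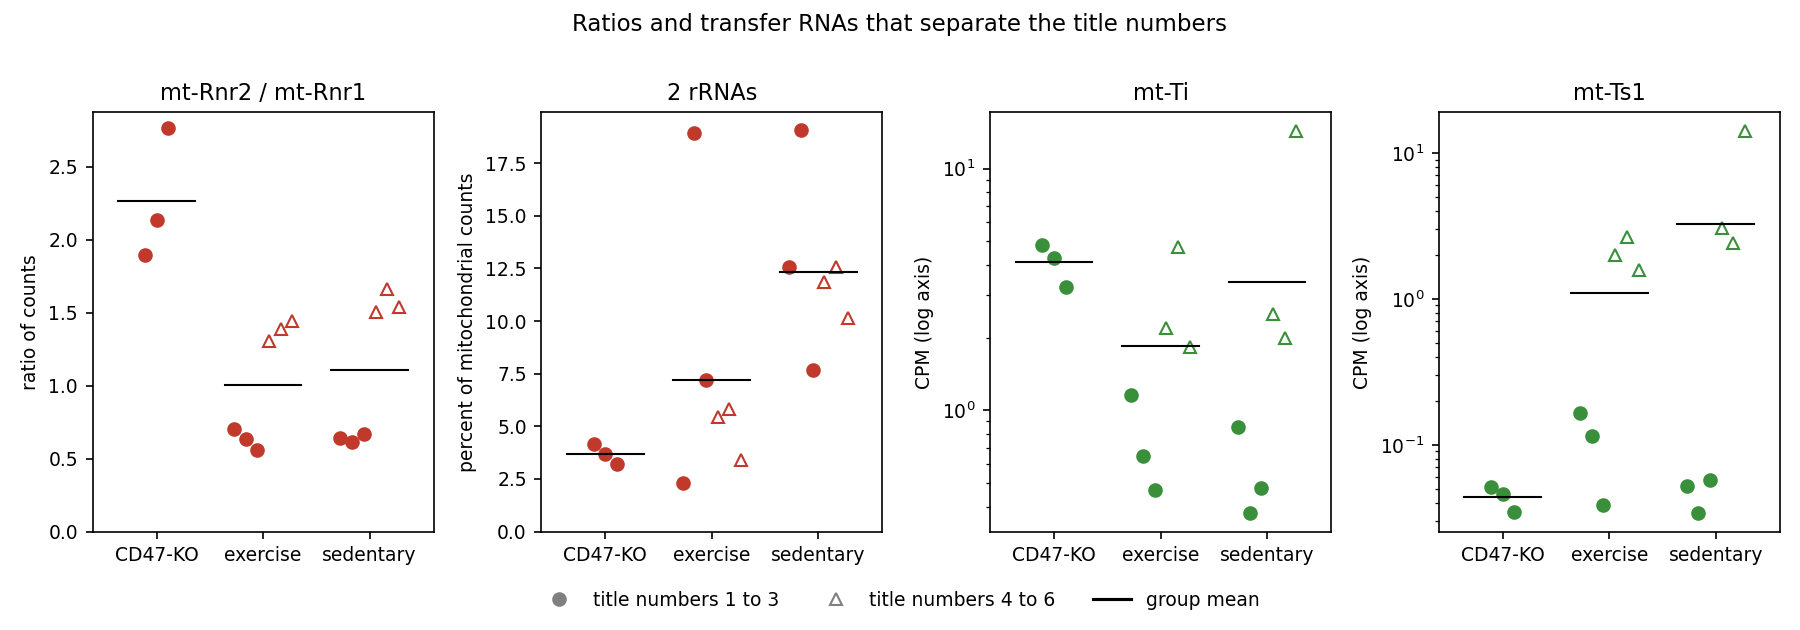
Ratio of mt-Rnr2 to mt-Rnr1 counts, the 2 rRNAs as percent of mitochondrial counts, and CPM of mt-Ti and mt-Ts1 on log axes, for each library labelled CD47-KO, exercise or sedentary; filled circles are title numbers 1 to 3, open triangles numbers 4 to 6, and lines group means. For the ratio, mt-Ti and mt-Ts1 the triangles lie above the circles of the exercise and sedentary groups, and for mt-Ts1 the libraries labelled CD47-KO lie with the circles.

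Nuclear DNA of the mouse carries copies of mitochondrial sequence, and reads from these genes can be given to a copy. A run of 7 annotated pseudogenes on the minus strand of chromosome 1, between positions 24611535 and 24616197 (GRCm38), matched 7 of the mRNAs at 99.71% identity or more. Together the copies held 4.67% to 4.87% of counts in the libraries labelled CD47-KO, 0.874% to 4.29% in exercise libraries and 0.791% to 6.95% in sedentary libraries. Gm28437 is identical to mt-Co3 over 783 bases, and mt-Co3 had 1.00 to 1.09 counts per count of it in the libraries labelled CD47-KO, 0.998 to 1.43 in exercise libraries and 1.01 to 1.69 in sedentary libraries. Reads of such pairs cannot be told apart, and the levels of mt-Co2, mt-Co3, mt-Atp6, mt-Nd3, mt-Nd4l, mt-Nd4 and, over 31.3% of its length, mt-Co1 are uncertain for that reason.

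mt-Atp6 shows how this split can set a value. Its copy Gm10925 had 801242, 838957 and 973001 counts in the libraries labelled CD47-KO, where mt-Atp6 itself had 118844, 157802 and 927286. The ratio of mt-Atp6 to its copy was 0.148, 0.188 and 0.953 in the libraries labelled CD47-KO, 0.134 to 0.237 in exercise libraries and 0.163 to 0.284 in sedentary libraries. Only CD47-KO library 3 stood apart, the library on which the fold of mt-Atp6 rested. Gm10222, the copy of mt-Nd4l, had a log2 fold change of 2.39 (adjusted p = 0.00156), beside 2.37 for mt-Nd4l. Gm28439, which covers 63.6% of mt-Nd4, had 2.29 (adjusted p = 0.0103), and Gm10925 had 1.27 (adjusted p = 0.260). With each copy's counts added to its mitochondrial gene, 15 of the 37 genes were called, as many as without, and 20.7% of all genes in both fits. Against exercise libraries 12 were called, against 13 without, and 20.6% of all genes in both fits. Relative to mitochondrial mRNA 6 were called over sedentary libraries, against 8 without, and the calls of mt-Co3, mt-Rnr2 and mt-Atp8 were lost. Over exercise libraries 4 were called, against 6 without. Calls over all genes fell on this scale too, from 44.0% to 38.1% over sedentary and from 31.4% to 20.4% over exercise libraries. The lost calls are therefore not particular to the genes with a copy.

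**Figure D5:**
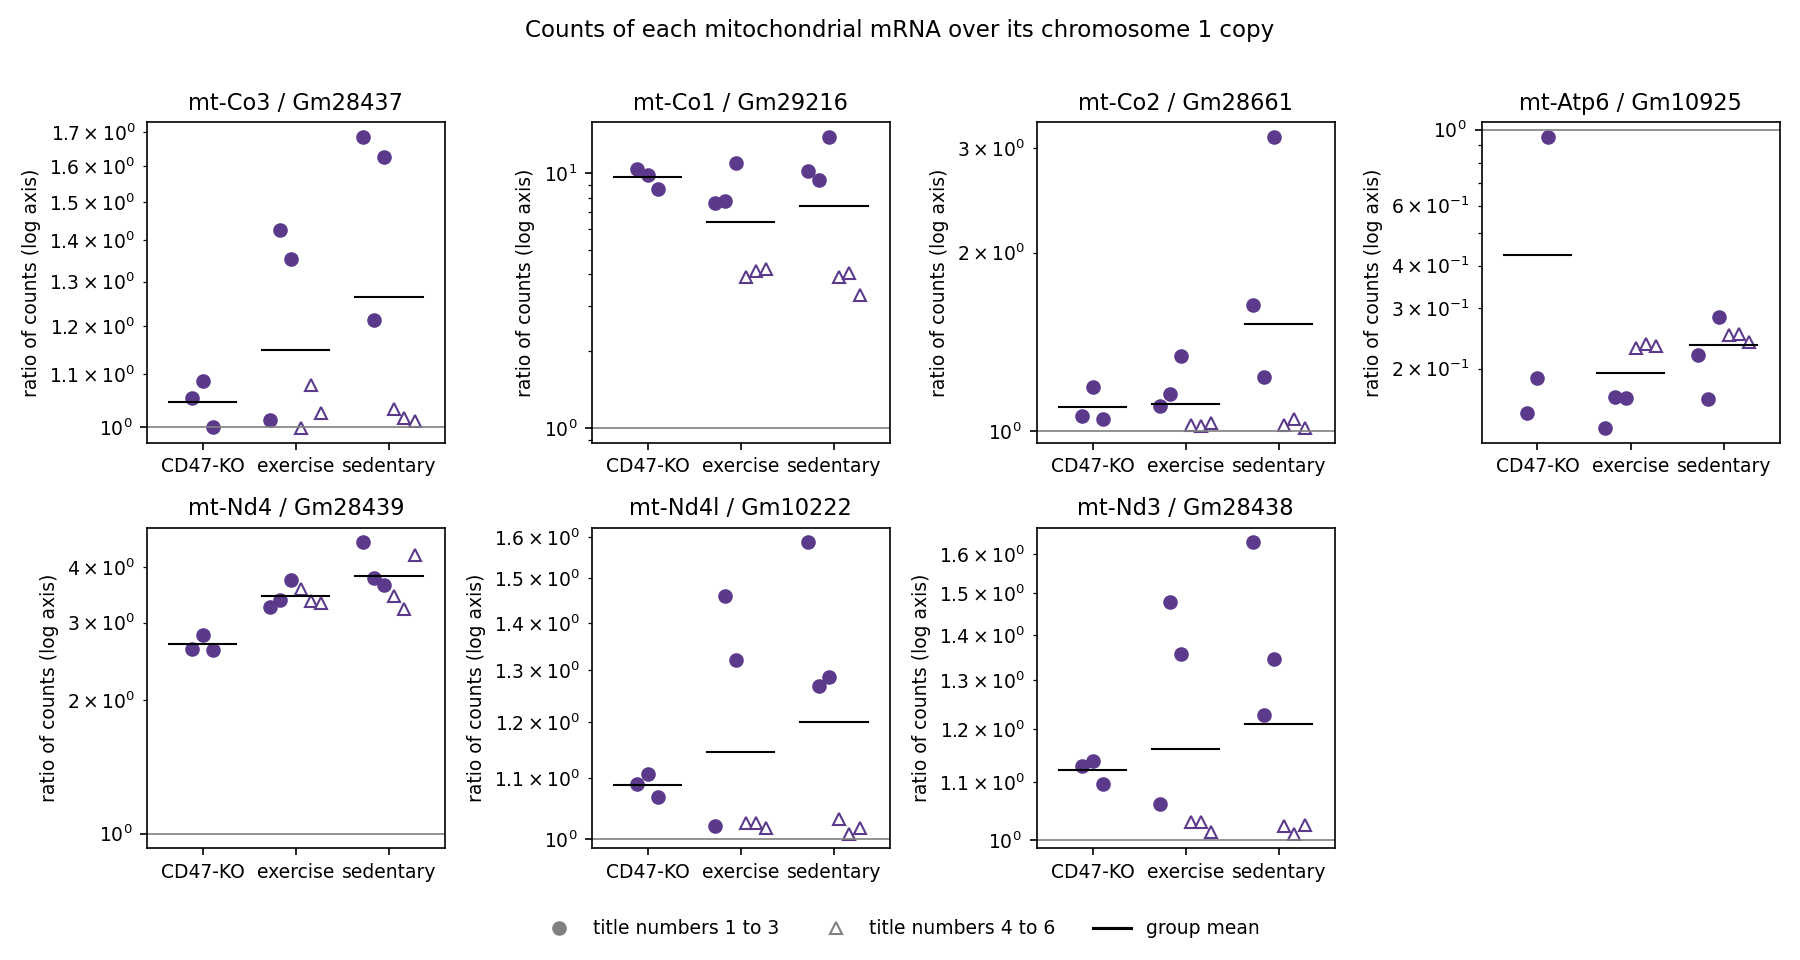
Counts of each of 7 mitochondrial mRNAs divided by the counts of its chromosome 1 copy (y axis, log scale) in each library labelled CD47-KO, exercise or sedentary; filled circles are title numbers 1 to 3, open triangles numbers 4 to 6, lines group means, and the grey line marks equal counts. The ratio of mt-Atp6 is under 0.3 in 14 of 15 libraries and 0.953 in CD47-KO library 3, and that of mt-Co1 is lower for numbers 4 to 6.

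The nuclear genes that maintain and express the mitochondrial genome were described from 6 lists, read against the 11.9% of all genes called higher and the 8.75% called lower. Of 17 genes of mitochondrial DNA maintenance, 2 were higher and 0 lower in the libraries labelled CD47-KO than in sedentary libraries, with a median log2 fold change of -0.07 (all genes -0.11), a share of higher calls close to that of all genes. They were Rrm2b, a ribonucleotide reductase subunit that supplies nucleotides (30.5 to 32.2 CPM in the libraries labelled CD47-KO, 4.08 to 12.0 CPM in exercise libraries and 2.24 to 13.03 CPM in sedentary libraries; log2 fold change 2.08, SE 0.39; adjusted p = 0.00134), and Ssbp1, the single-strand binding protein (0.85, SE 0.19; adjusted p = 0.00499). Of 10 genes of mitochondrial transcription, 3 were higher and 0 lower, with a median of 0.66. Tfb2m, which helps the polymerase open promoters, had 46.8 to 52.9 CPM in the libraries labelled CD47-KO, 23.6 to 35.2 CPM in exercise libraries and 16.4 to 30.1 CPM in sedentary libraries (1.18, SE 0.19; adjusted p = 0.000406). Mterf3 (1.25; adjusted p = 0.00687) and Tfam, which packages the genome and starts its transcription (0.81; adjusted p = 0.0348), were the others. With GC correction 0 of these 27 genes were called.

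Of 23 genes of mitochondrial RNA processing and stability, 6 were higher and 0 lower, with a median of 0.18. Trmt10c, a subunit of mitochondrial RNase P that cuts transfer RNAs at their 5′ ends, had 20.01 to 26.1 CPM in the libraries labelled CD47-KO, 3.53 to 8.38 CPM in exercise libraries and 1.92 to 8.21 CPM in sedentary libraries (log2 fold change 2.13, SE 0.34; adjusted p = 0.000488). It was the 1 call of this list kept with GC correction (1.28; adjusted p = 0.00850), which gave 1 higher and 2 lower in all. Pnpt1, a mitochondrial RNA exonuclease, had a log2 fold change of 2.02 (adjusted p = 0.00175) and 0.77 with GC correction. Mtpap, the mitochondrial poly(A) polymerase, had 0.70 (adjusted p = 0.00336) and 0.07 with GC correction.

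The lists closer to translation held calls in both directions. Of 27 genes that modify mitochondrial transfer and ribosomal RNA, 2 were higher and 2 lower (median -0.07), among them the cytosine methyltransferase Nsun3 (1.22; adjusted p = 0.0100). Of 23 aminoacyl-tRNA synthetases 1 was higher, Mars2 (1.20; adjusted p = 0.00763), and 2 were lower, Sars2 (-0.62; adjusted p = 0.0188) and Kars (-0.50; adjusted p = 0.0397), with a median of -0.10. Of 14 translation factors 2 were higher, Mtrf1l (1.15; adjusted p = 0.00438) and Guf1 (1.07; adjusted p = 0.00634), and 1 was lower, Mrpl58 (-0.64; adjusted p = 0.0490), with a median of 0.31. With GC correction the modifying enzymes gave 0 higher and 1 lower with 0 calls kept. The synthetases gave 0 and 1 with Kars kept (-0.71; adjusted p = 0.0323), and the translation factors 1 and 1 with Mtrf1l kept (0.95; adjusted p = 0.0310). Guf1 had the opposite sign under it (-0.53; adjusted p = 0.0260). Of the nuclear genes named from these lists and called, Kars was called in 1 of the 9 fits that left out 1 library, Mrpl58 in 3, Tfam in 4 and Sars2 in 6, and the others in all 9.

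Among the nuclear respiratory chain subunits, Atp5g3, a c-ring subunit of the ATP synthase, had 131 to 155 CPM in the libraries labelled CD47-KO, 303 to 516 CPM in exercise libraries and 290 to 618 CPM in sedentary libraries (log2 fold change -1.46, SE 0.27; adjusted p = 0.00140, and -1.48 with GC correction, adjusted p = 0.00627). Ndufb6, a complex I subunit, had a log2 fold change of -1.41 (SE 0.30; adjusted p = 0.00323, and -1.54 with GC correction, adjusted p = 0.0115). The libraries labelled CD47-KO lay below all others for both genes. In exercise against sedentary libraries, 0 genes of any of these 7 lists were called, where 0.00% of all genes were.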

How the data were processed

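Skeletal muscle RNA was counted in 15 libraries. The submitters' processing notes name the build GRCm38 and the tools HISAT2 2.0.1, Trimmomatic 0.30 and HTSeq 0.6.1; the handling of strand and of reads with several matches, and the annotation release, are not given in the sources used here. The deposited table holds read counts per gene symbol, whole numbers that the authors did not normalise; their totals, given with the results, are the depth. Between 32.1% and 50.2% of the values from 1 to 15 in a library were multiples of 4, for a reason not given in the sources used here.

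Groups were taken from the labels. Genes were filtered with filterByExpr, scaled by TMM and tested with edgeR 4.0.16 (quasi-likelihood, robust, prior count 2, all 15 libraries in 1 fit) in R 4.3.3, with Benjamini-Hochberg adjustment over 17975 genes and a threshold of 0.05; DESeq2 1.42.0 was an alternative. The same test was run with the summed mitochondrial mRNA as library size. GC correction removed a lowess trend (span 0.3) of log counts on transcript GC in each library. Nuclear copies were found by blastn 2.17.0 against GENCODE vM21 transcripts, which also gave coordinates and sequences. Same-numbered exercise and sedentary libraries deviated together (correlations 0.194 to 0.364), but so did libraries of other numbers within 1 to 3 or within 4 to 6 (0.115 to 0.312), whereas those across these sets did not (-0.336 to -0.130). The shared deviation thus follows the set, not clearly the number; a block on the number changed no call between these groups. The scripts were tested on simulated data. The genes and lists were chosen with earlier results of these data known. All mitochondrial genes are shown in a figure, and all but mt-Tw are named with a result. Genes named from the other lists, apart from Uqcrb, were among those with the smallest p, but not all such genes are named. Single mitochondrial genes are given against sedentary libraries, and counts and medians for the libraries labelled CD47-KO against exercise libraries, a choice made after the effect of GC correction was seen.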

Additional observations from a re-analysis of the deposited data

Results flagged for a closer look

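In 32 of 80 sets of values for a gene or share within the exercise or sedentary group, 1 library lay far from its group. The nominal rate is about 5% of sets, for values with a normal spread. The sets share their libraries and hold genes that move together, so 1 high library is counted many times. In 28 of the 32 sets it was sedentary library 6, always high. Its share of counts was 16.3% for mitochondrial mRNA and 0.0426% for transfer RNA. Among mRNAs it had 79863 CPM for mt-Co1, 29704 for mt-Co3, 23086 for mt-Nd1, 20516 for mt-Cytb, 13309 for mt-Co2, 10982 for mt-Nd4, 10399 for mt-Nd2, 5487 for mt-Nd5, 3408 for mt-Atp6, 3157 for mt-Nd3, 2492 for mt-Nd6 and 1677 for mt-Atp8. Among transfer RNAs it had 189 CPM for mt-Te, 84.4 for mt-Tn, 51.1 for mt-Ta, 41.4 for mt-Tc, 33.1 for mt-Tp, 28.6 for mt-Ty, 14.2 for mt-Ti, 14.0 for mt-Ts1, 8.16 for mt-Tm, 2.99 for mt-Td, 2.13 for mt-Tt, 1.49 for mt-Tq, 0.947 for mt-Tv and 0.904 for mt-Tf. The sum of 5 adipocyte markers was also highest in this library among sedentary ones, at 0.0442% of counts.

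The other 4 were exercise libraries, which were high for low transfer RNAs. Exercise library 1 had 8.90 CPM for mt-Tg, 7.57 for mt-Tl2 and 0.921 for mt-Tk, and exercise library 5 had 0.741 CPM for mt-Tq.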

How the results depend on the processing

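Most recomputed results were classed as unchanged: 1960 values of single genes and 172 counts and shares. A gene called in either fit was so classed if it kept its sign and call. A gene called in neither was so classed if it moved by no more than its SE, whatever its sign. Counts had to stay within a set factor of the main count, and shares within the SD of their group. The unchanged totals include values between exercise and sedentary libraries, where no mitochondrial gene was called with counts scaled to all genes. A count of 0 that stayed 0 was classed as unchanged there. These totals thus do not measure how firm the calls for the libraries labelled CD47-KO were. Of single genes, 174 values lost a call, 78 gained one and 152 not called moved further, as did 38 counts and shares. Signs of genes not called could change, as for 14 of 37 between exercise and sedentary libraries without sedentary library 6. Exercise libraries 4 to 6 have other numbers in their descriptions, so the replicate block rests on title numbers alone. Among genes called in either fit, all but 2 of the reversals came with GC correction. For the libraries labelled CD47-KO over sedentary libraries, the log2 fold changes with GC correction were -0.24 for mt-Nd2, -0.16 for mt-Atp8, -0.35 for mt-Nd6, -1.01 for mt-Tn, -2.34 for mt-Td, -1.67 for mt-Tr, -0.92 for mt-Th, -1.10 for mt-Tl2, -0.29 for Ssbp1, -0.25 for Mars2 and -0.53 for Guf1, and relative to mitochondrial mRNA -0.25 for mt-Atp8. With GC correction and a replicate block they were -0.065 for mt-Nd2, -0.27 for mt-Atp8, -0.20 for mt-Nd6, -1.70 for mt-Ta, -1.30 for mt-Tn, -0.044 for mt-Tc, -2.54 for mt-Td, -1.77 for mt-Tg, -2.49 for mt-Tr, -1.61 for mt-Th, -1.85 for mt-Tl2, -0.34 for Ssbp1, -0.14 for Mars2, 0.015 for Sars2 and -0.52 for Guf1, and relative to mitochondrial mRNA -0.42 for mt-Atp8. mt-Nd3 had 1.58 with a replicate block and 1.88 among numbers 1 to 3. Against exercise libraries 27 values of mitochondrial genes called in either fit turned with GC correction, and 7 relative to mitochondrial mRNA; between exercise and sedentary libraries 0 did. The cause was not tested.

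Mitochondrial genes called in the libraries labelled CD47-KO over sedentary libraries numbered 15, and 27 with a replicate block and 7 with GC correction. They numbered 25 without sedentary libraries 1 and 6, and 30 among numbers 1 to 3. Over all genes 3719 of 17975 were called, and 4842 with the block, 1605 with GC correction and 2459 with that and the block. Without sedentary libraries 1 and 6 these were 3762 of 17643, and among numbers 1 to 3 they were 5588 of 16932. Over exercise libraries 13 mitochondrial genes were called, and 21 with only these 2 groups fitted and 25 with the block. With GC correction 7 were called, and 22 among numbers 1 to 3. Over all genes 3698 of 17975 were called there, and 4980 with the block and 1629 with GC correction. With only these 2 groups they were 4782 of 17219, and among numbers 1 to 3 they were 5472 of 16932. Relative to mitochondrial mRNA the 8 calls over sedentary libraries were 5 with no filter, 4 with only the 2 groups and 16 with GC correction and the block. The 6 over exercise libraries were 10 with only the 2 groups, 16 with GC correction and the block, and 14 among numbers 1 to 3. On this scale 44.0% and 31.4% of all genes were called, and 70.1% over exercise libraries among numbers 1 to 3. Because the share over all genes moves with the setting, these counts are not read as results about mitochondrial genes alone. DESeq2 called 9 genes between exercise and sedentary libraries. The share in the libraries labelled CD47-KO was 22.9 per 100 nuclear counts. After centring within each group, same-numbered libraries labelled CD47-KO correlated at -0.102 to 0.047 with sedentary libraries and -0.028 to 0.149 with exercise libraries. The number thus marks no clear pairing between them. All libraries labelled CD47-KO carry numbers 1 to 3, so centring removes what they share with other libraries of that set. Whether they share a preparation with those cannot be told from these values. Numbers 4 to 6 could be compared only between exercise and sedentary libraries.

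Leaving out 1 library at a time gave 2178 to 3881 genes, 10 to 26 mitochondrial genes and 0 to 10 relative to mitochondrial mRNA for the libraries labelled CD47-KO over sedentary libraries; 2292 to 3554, 8 to 14 and 0 to 7 over exercise libraries; and 0 between exercise and sedentary libraries. The mean shares were 18.4% to 18.9% in the libraries labelled CD47-KO, 7.59% to 9.20% in exercise libraries and 6.62% to 9.30% in sedentary libraries. Merging the copies and the block on sets of numbers were chosen after seeing the data.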
